A study of Mus musculus with 8 samples.

Results

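The mitochondrial ribosomal RNAs mt-Rnr1 and mt-Rnr2 were examined nucleotide by nucleotide in iCLIP tracks of the splicing factor SRSF3. They were taken as the plus strand of the mitochondrial chromosome (M) from 70 to 1024, which is mt-Rnr1 with 955 nt, and from 1094 to 2675, which is mt-Rnr2 with 1582 nt. They are 2 of the 37 mitochondrial genes. At least 1 cDNA was placed at 1287 of their nucleotides in replicate 1, 1755 in replicate 2 and 1550 in the other libraries, out of 769652, 2093525 and 1068324 covered positions in all.

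The values come from SRSF3-GFP iCLIP of neonatal cardiomyocytes (2 replicates), made from C57BL/6 mice of postnatal day 0 or 1. The cells received 15 µg of a modified mRNA for SRSF3 joined to green fluorescent protein (GFP) by lipofection with 21 µL of Lipofectamine. After 48 h a UV dose of 100 mJ (254 nm) was given, RNA was trimmed with RNase I, and RNA crosslinked to the tag was precipitated with an antibody against GFP and sequenced. The labels give no deletion of the cells' own Srsf3, so the tagged protein was added to it, and no untransfected or control precipitation was analysed here. The series also holds 3 SRSF3 knockout hearts and 3 control hearts, which are not analysed here.

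The headers give both replicates the same library identifier, so whether they are separate cultures is not known. The merged track is a sum over 5 libraries, and 3 of them carry other identifiers. What remains of it after both replicates are subtracted is called the other libraries below. It is a pool of 1138453 cDNAs without a sample label, beside 815414 cDNAs in replicate 1 and 2253688 in replicate 2. Whether positions in these libraries are defined with the same offset from the cDNA end as in the replicates is not known. Cardiomyocyte markers were not checked, because no gene annotation of the mm9 build was used here.

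SRSF3, a small SR protein, takes part in the splicing of pre-mRNA and the export of mRNA from the nucleus. mt-Rnr1 and mt-Rnr2 are the RNA cores of the small and the large subunit of the mitochondrial ribosome, which makes the membrane subunits of the respiratory chain. Both are cut from a long transcript of the mitochondrial genome, with transfer RNAs at their ends, and they are abundant in heart. In iCLIP a cDNA usually ends next to the crosslinked nucleotide, so each position holds a number of cDNAs. That number follows both the amount of the RNA and its crosslinking, and these cannot be told apart here.

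Printed first are 9 of the 11 sites that hold the 10 highest single nucleotides of each RNA, because most results below refer to them. The sites of nucleotides 538 and 835 of mt-Rnr1 are not printed. Each is read 5′ to 3′ from the GENCODE M21 transcript (GRCm38), in DNA letters, and the capitals mark nucleotides among the 10 highest of their RNA, ranked by the lower of the 2 replicates. Positions are counted from the first base of the RNA. The transcripts were placed on the mm9 tracks by taking the numbering of M to be the same in both builds, for which a check is given below.
mt-Rnr1 249 to 289: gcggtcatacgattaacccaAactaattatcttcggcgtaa
mt-Rnr1 277 to 318: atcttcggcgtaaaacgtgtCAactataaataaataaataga
mt-Rnr1 375 to 417: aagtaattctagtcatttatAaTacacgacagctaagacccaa
mt-Rnr1 406 to 446: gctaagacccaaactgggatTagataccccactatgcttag
mt-Rnr1 447 to 489: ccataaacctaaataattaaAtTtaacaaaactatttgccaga
mt-Rnr2 207 to 248: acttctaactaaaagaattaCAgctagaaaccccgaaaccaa
mt-Rnr2 452 to 494: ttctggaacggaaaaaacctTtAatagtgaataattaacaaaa
mt-Rnr2 550 to 599: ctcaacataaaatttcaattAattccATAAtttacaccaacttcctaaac
mt-Rnr2 741 to 781: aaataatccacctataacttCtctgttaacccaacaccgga

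The 2 RNAs were among the places with the most deeply counted single nucleotides of the genome. Of 1321 positions with at least 20 cDNAs in both replicates together, 153 lay in them, 11.6%, although they held 0.498% of the cDNAs. In the merged track they held 215 of 2115 such positions, 10.2%.

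mt-Rnr1 had 1651 cDNAs in replicate 1, 3722 in replicate 2 and 1857 in the other libraries. Scaled to 1000000 cDNAs of the library (CPM), these are 2025 (exact Poisson 95% interval 1928 to 2125), 1652 (1599 to 1705) and 1631 (1558 to 1707). mt-Rnr2 had 3147, 6773 and 3338 cDNAs, or 3859 CPM (3726 to 3997) in replicate 1, 3005 (2934 to 3078) in replicate 2 and 2932 (2833 to 3033) in the other libraries. For both RNAs replicate 1 stood above the other tracks, whose intervals overlapped each other. Intervals cover counting error only.

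The signal was on the strand of the RNA. The minus strand of mt-Rnr1 held 0 cDNAs in every track, which allows up to 3.68 CPM in replicate 1 and 1.33 CPM in replicate 2 (3 cDNAs each). The minus strand of mt-Rnr2 held 2 cDNAs in replicate 1, 5 in replicate 2 and 2 in the other libraries.

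**Figure D1:**
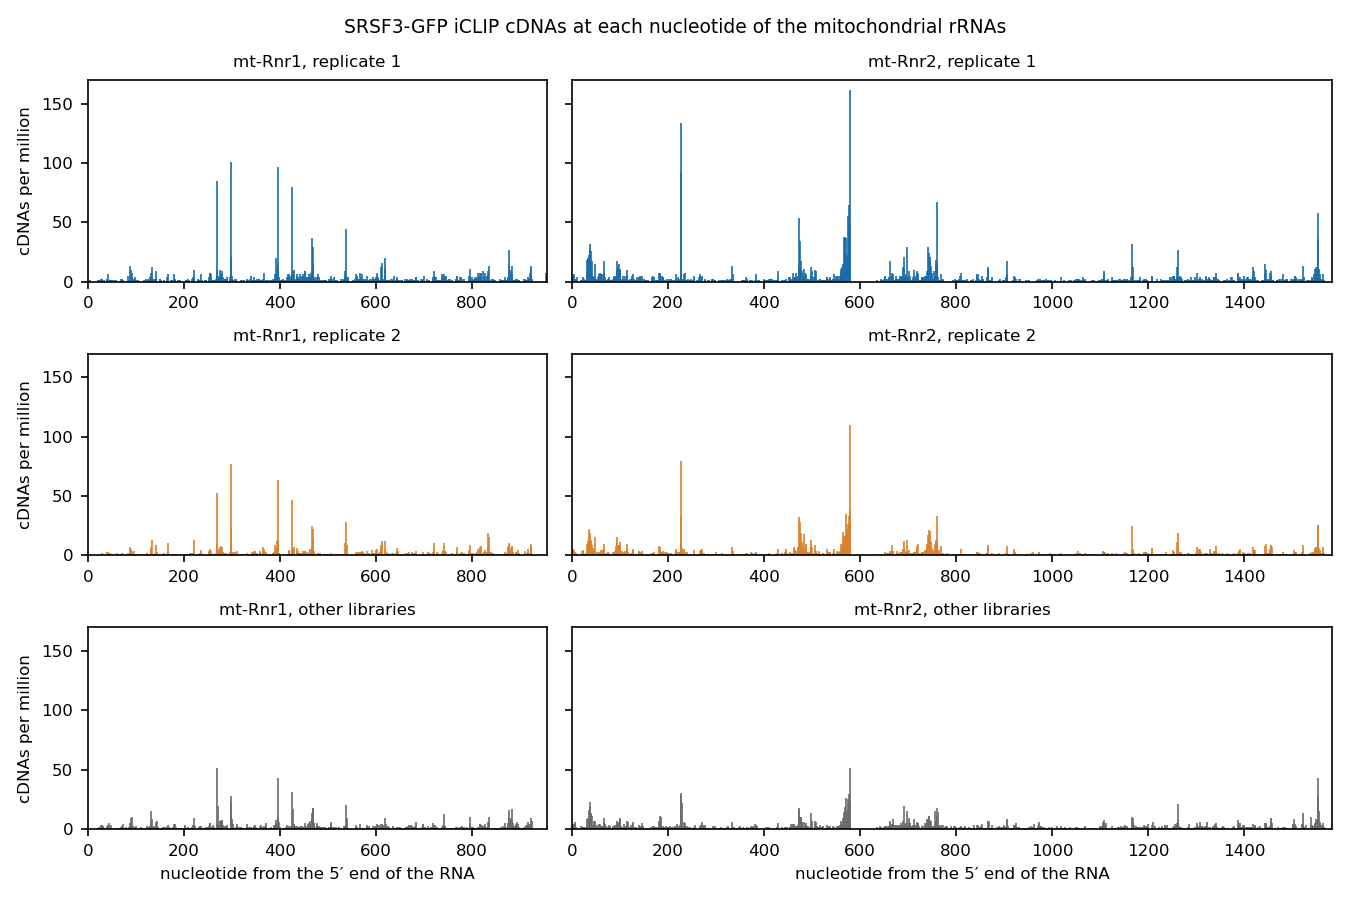
cDNAs per 1000000 cDNAs of the library at each nucleotide of mt-Rnr1 (left) and mt-Rnr2 (right), from the 5′ end, for replicate 1 (top), replicate 2 (middle) and the other libraries (bottom), all on the same axis. The highest lines stand at nucleotide 298 of mt-Rnr1 and 579 of mt-Rnr2 in both replicates, and the longest gap in the right panels follows nucleotide 579.

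In mt-Rnr1 the 4 highest nucleotides together held 17.9% of the RNA's cDNAs in replicate 1, 14.5% in replicate 2 and 9.48% in the other libraries, and all lay between nucleotides 240 and 478. Nucleotide 298 (M, 367), an A, held 82 cDNAs in replicate 1, 174 in replicate 2 and 32 in the other libraries. These are 4.97%, 4.67% and 1.72% of the RNA's cDNAs. It was the highest nucleotide of mt-Rnr1 in both replicates and 4th in the other libraries.

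Nucleotide 395 (M, 464), an A, held 79 cDNAs in replicate 1, 144 in replicate 2 and 49 in the other libraries. Nucleotide 269 (M, 338), also an A, held 69, 118 and 59 cDNAs in the same order of tracks, and was the highest nucleotide of the other libraries. Nucleotide 426 (M, 495), a U, held 65, 105 and 36. These 4 nucleotides were the 4 highest in all 3 tracks.

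The next nucleotides of mt-Rnr1 were lower by a step. Nucleotide 538 (M, 607) held 36 cDNAs in replicate 1, 64 in replicate 2 and 23 in the other libraries, and nucleotide 467 (M, 536) held 30, 56 and 15. Further members of the 10 highest were nucleotides 469, 297, 835 and 397. They held between 11 and 24 cDNAs in replicate 1, between 29 and 51 in replicate 2 and between 10 and 20 in the other libraries. The last of the 10, nucleotide 397, had 15.9 CPM and 12.9 CPM in replicates 1 and 2, and nucleotide 468, just outside, had 14.7 and 12.4 CPM.

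In mt-Rnr2 the strongest nucleotide was 579 (M, 1672), an A, in all 3 tracks. It held 132 cDNAs in replicate 1, 247 in replicate 2 and 59 in the other libraries, which are 4.19%, 3.65% and 1.77% of the RNA's cDNAs. It closes a run of high nucleotides: from 570 to 579 there were 398 cDNAs in replicate 1, 748 in replicate 2 and 252 in the other libraries, or 12.6%, 11.04% and 7.55% of mt-Rnr2. Of the 10 highest nucleotides, 5 lie in this run (570, 576, 577, 578 and 579).

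The other strong site of mt-Rnr2 was a pair of neighbours. Nucleotide 227 (M, 1320), a C, held 109 cDNAs in replicate 1, 180 in replicate 2 and 33 in the other libraries. Nucleotide 228 (M, 1321), an A, held 75, 75 and 35 cDNAs in these tracks. The C was therefore the higher of the pair in both replicates but not in the other libraries.

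The remaining members of the 10 highest in mt-Rnr2 were 761, 472 and 474. Nucleotide 761 (M, 1854) held 55 cDNAs in replicate 1, 74 in replicate 2 and 20 in the other libraries. Nucleotide 472 (M, 1565) held 44, 72 and 20 cDNAs, and nucleotide 474 (M, 1567) held 28, 63 and 12. In the other libraries these 3 ranked 17th, 17th and 36th.

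**Figure D2:**
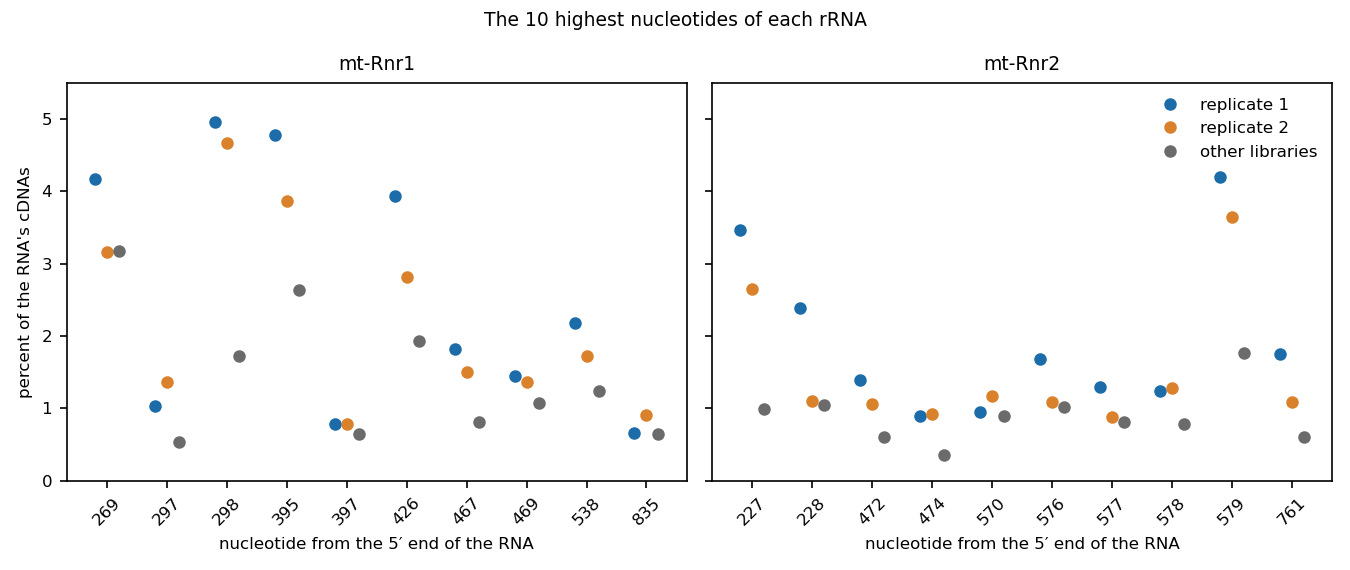
Share of its RNA's cDNAs (percent) at the 10 highest nucleotides of mt-Rnr1 (left) and mt-Rnr2 (right), by distance from the 5′ end, for replicate 1, replicate 2 and the other libraries (1 point each). At nucleotide 298 of mt-Rnr1 the points are at 4.97%, 4.67% and 1.72%, and at 579 of mt-Rnr2 at 4.19%, 3.65% and 1.77%.

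How far peaks recur was read from peaks chosen in one track and looked up in another. A peak was a nucleotide with at least 10 times the mean count of its RNA. In mt-Rnr1, 7 of the 8 peaks of replicate 1 were peaks in replicate 2 (87.5%, Wilson 95% interval 52.9% to 97.8%), where 0.942% of all nucleotides of the RNA were peaks. In mt-Rnr2 it was 17 of 23 (73.9%, 53.5% to 87.5%), where 1.33% of all nucleotides were.

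The peaks shared by both replicates were then looked up in the other libraries, which the choice did not use. In mt-Rnr1, 6 of 7 were peaks there (85.7%, 48.7% to 97.4%), and in mt-Rnr2, 12 of 17 (70.6%, 46.9% to 86.7%). Peaks made up 0.942% and 0.885% of all nucleotides of these RNAs in the other libraries. The shared peak of mt-Rnr1 that was missing is nucleotide 467, with 15 cDNAs in the other libraries. Those of mt-Rnr2 are 472, 474, 743, 761 and 1167, with 12 to 20 cDNAs.

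Peaks that were not shared were still occupied. A peak in at least 1 track was found at 13 nucleotides of mt-Rnr1 and 29 of mt-Rnr2, of which 6 and 12 were peaks in all 3. None of these 42 nucleotides was at 0 in any track, which holds by definition for the peaks in all 3. Of all nucleotides of an RNA, 50.3% to 70.5% held a cDNA in a given track. Nucleotides that were a peak in a single track numbered 6 in mt-Rnr1 and 12 in mt-Rnr2. The lowest count among them was 2 cDNAs, in replicate 1 at nucleotide 229 of mt-Rnr2.

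Across all nucleotides the profiles were similar but not equal. Over the 955 nucleotides of mt-Rnr1, log2(cDNAs + 1) of replicates 1 and 2 were correlated with Pearson r = 0.71 (Spearman 0.60), and over the 1582 of mt-Rnr2 with r = 0.77 (Spearman 0.65). In 25 nt windows r was 0.94 over 39 windows and 0.97 over 64. Between replicate 2 and the other libraries the window values were 0.92 and 0.94. These are descriptions across positions that share an RNA, its base composition and its mappability, and neighbouring positions are not independent.

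The signal was concentrated. The 10 highest nucleotides of replicate 1 in mt-Rnr1, 1% of its length, held 26.7% of the cDNAs of replicate 1 by choice, and 21.5% of those of replicate 2 (Wilson 95% interval 20.2% to 22.9%) and 14.6% of those of the other libraries (13.1% to 16.3%). The 16 highest of mt-Rnr2 held 19.1% in replicate 2 (18.2% to 20.03%) and 13.9% in the other libraries (12.8% to 15.1%).

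The same measure was lower in the mitochondrial mRNAs of the plus strand. In replicate 2 it was 11.3% in mt-Co1, a catalytic subunit of complex IV, and 5.52% in mt-Nd2, a subunit of complex I. In mt-Nd1, mt-Nd4, mt-Nd5 and mt-Cytb it lay between 4.72% and 5.02%. The mRNAs had 142 to 473 cDNAs in replicate 1, against 1651 and 3147 for the rRNAs, so their highest nucleotides were picked from smaller counts. The difference was not tested.

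Segments dense in cDNAs and segments with few cDNAs alternated along both RNAs, largely at the same places in all 3 tracks. In 25 nt windows from the 5′ end, 10 of the 39 windows of mt-Rnr1 lay above the RNA's mean density in all 3 tracks and 6 lay under 0.5 times the mean in all 3. In mt-Rnr2, 16 of 64 lay above the mean and 24 under 0.5 times the mean. The windows named next are the 3 densest and the 3 least dense of each RNA, given as descriptions.

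The densest window of mt-Rnr1 in the replicates was 276 to 300, with 160 cDNAs in replicate 1, 346 in replicate 2 and 143 in the other libraries, 3.70, 3.55 and 2.94 times the mean. Windows 376 to 400 and 451 to 475 followed, with 148 and 129 cDNAs in replicate 1, 293 and 258 in replicate 2, and 128 and 129 in the other libraries. Nucleotides 240 to 478 of mt-Rnr1 held 47.6% of its cDNAs in replicate 1, 44.4% in replicate 2 and 41.8% in the other libraries. Nucleotides 1 to 239 held 11.7%, 13.0% and 17.0%. The least dense windows were 926 to 950, with 1 cDNA in replicate 1, 4 in replicate 2 and 0 in the other libraries, 1 to 25, with 4, 7 and 4, and 51 to 75, with 8, 32 and 17.

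The densest windows of mt-Rnr2 were 551 to 575 and 576 to 600. They held 294 and 265 cDNAs in replicate 1, 567 and 468 in replicate 2, and 219 and 146 in the other libraries. Window 26 to 50, near the 5′ end, followed with 206, 393 and 183. Nucleotides 397 to 791 of mt-Rnr2 held 44.9% of its cDNAs in replicate 1, 44.4% in replicate 2 and 37.4% in the other libraries. Nucleotides 792 to 1186, a stretch of the same length, held 9.25%, 9.26% and 13.3%. Here lay 2 of the least dense windows, 1001 to 1025 with 5 cDNAs in replicate 1, 12 in replicate 2 and 12 in the other libraries, and 1076 to 1100 with 5, 16 and 9. The least dense was 601 to 625, with 0 in every track.

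**Figure D3:**
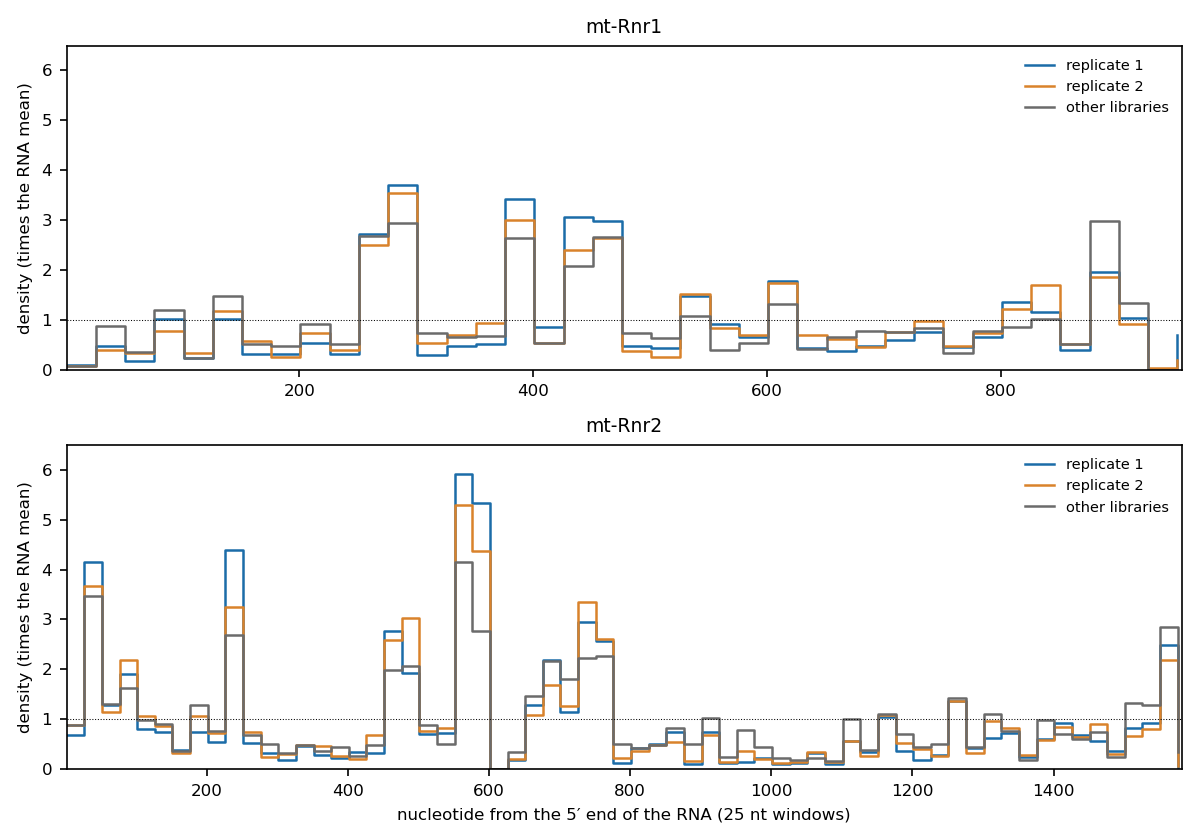
cDNA density in 25 nt windows along mt-Rnr1 (top) and mt-Rnr2 (bottom), as a multiple of the RNA's mean density in the same track, for replicate 1, replicate 2 and the other libraries; the dotted line marks the mean. The lines rise to 3.70, 3.55 and 2.94 at 276 to 300 of mt-Rnr1 and to 5.91, 5.30 and 4.15 at 551 to 575 of mt-Rnr2, and all reach 0 at 601 to 625 of mt-Rnr2.

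The longest empty stretch followed directly on the strongest nucleotide. In mt-Rnr2, 580 to 633 (M, 1673 to 1726), 54 nt, held no cDNA in either replicate or in the other libraries. At the mean density of mt-Rnr2, 54 nt would hold 107 cDNAs in replicate 1 and 231 in replicate 2. It is printed here with 20 nt on either side, the empty nucleotides in capitals.
mt-Rnr2 560 to 653: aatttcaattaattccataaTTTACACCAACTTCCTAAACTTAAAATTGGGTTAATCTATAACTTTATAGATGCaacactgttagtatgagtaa

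Counts were high up to this edge and low after the stretch. The 20 nt before it (560 to 579) held 541 cDNAs in replicate 1, 993 in replicate 2 and 346 in the other libraries, against 37, 77 and 28 in the 20 nt before those. After the stretch, the first 20 nt (634 to 653) held 18, 33 and 24 cDNAs and the next 20 nt held 49, 98 and 64. None of its 54 nucleotides was followed by 30 nt that occur, without mismatch, in another reference transcript. Copies in nuclear DNA outside transcripts, and copies with mismatches, were not looked for, so their part in the gap was not tested.

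**Figure D4:**
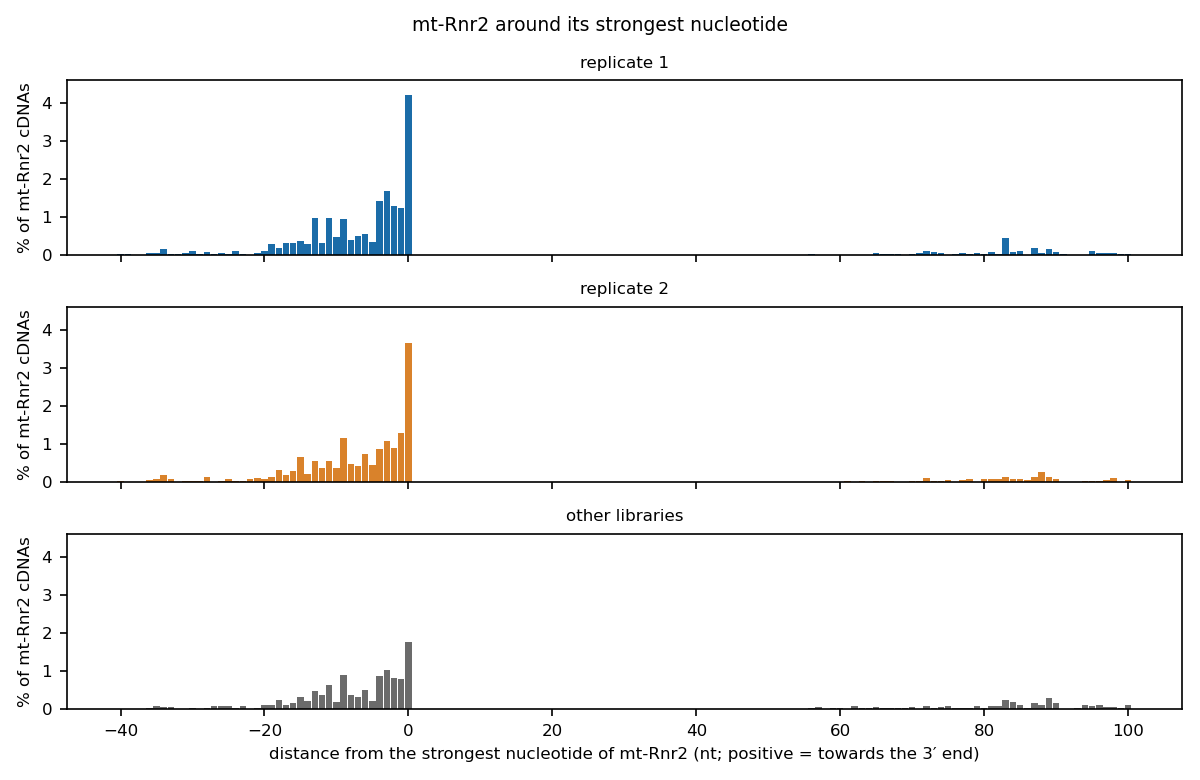
Share of the cDNAs of mt-Rnr2 (percent) at each nucleotide from 40 nt before to 100 nt after its strongest nucleotide, for replicate 1, replicate 2 and the other libraries. The bars climb to 4.19%, 3.65% and 1.77% at distance 0, and the next 54 nt hold none in any track.

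The next longest empty runs were short, and 4 of 5 lay near an end of the RNA. In mt-Rnr1, 936 to 953 (18 nt) had no cDNA in any track, and this run ends 2 nt before the 3′ end. Directly upstream, 927 to 934 (8 nt) was also empty in all 3. Near the 5′ end of mt-Rnr1, 9 to 20 (12 nt) was empty in both replicates and held 1 cDNA in the other libraries. In mt-Rnr2, 1567 to 1576 (10 nt) was empty in both replicates, 6 nt before the 3′ end, and held 3 cDNAs in the other libraries. The run from 1008 to 1016 of mt-Rnr2 (9 nt) lay inside a stretch with copies, described below, and held 4 cDNAs in the other libraries.

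The ends of the 2 RNAs were not alike. The first 25 nt of mt-Rnr1 held 4 cDNAs in replicate 1, 7 in replicate 2 and 4 in the other libraries, and the first 25 nt of mt-Rnr2 held 34, 94 and 47. At the 3′ end, the last 20 nt of mt-Rnr1 held 6, 4 and 0 cDNAs and those of mt-Rnr2 held 7, 32 and 21. Just before that, nucleotides 1553 and 1554 of mt-Rnr2 were peaks in all 3 tracks, with 29 and 47 cDNAs in replicate 1, 57 and 57 in replicate 2, and 32 and 49 in the other libraries.

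In all, 229 nucleotides of mt-Rnr1 (23.98%) and 391 of mt-Rnr2 (24.7%) had no cDNA in either replicate. The other libraries filled 74 and 130 of them. A copy in another reference transcript, judged by the 30 nt from each nucleotide on, was found for 0 nucleotides of mt-Rnr1 and for 44 of mt-Rnr2 (M, 1962 to 1969 and 2101 to 2136). Those 44 nucleotides held 13 cDNAs in replicate 1, 25 in replicate 2 and 25 in the other libraries, and 24 of them were empty in both replicates.

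Replicates 1 and 2 differed at some of the deep nucleotides, always with more in replicate 1. At a 5% false discovery rate 14 of the 153 tested rRNA nucleotides differed (9.15%), all of them higher in replicate 1 (exact binomial test, two-sided, with library totals as the expected ratio, Benjamini-Hochberg over 1321 positions of the genome). Over all 1321 positions 4.84% were called, 4.47% higher and 0.379% lower. The test compares these 2 libraries and covers counting error only.

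Of the 14, 3 lay in mt-Rnr1 (269, 426 and 878) and 11 in mt-Rnr2. Nucleotide 228 of mt-Rnr2 stood out, with 92.0 CPM in replicate 1 and 33.3 CPM in replicate 2, a log2 ratio of 1.47 (95% interval 0.99 to 1.95, adjusted p = 2.39e-07, exact binomial test). Its neighbour 227 had 134 CPM in replicate 1 and 79.9 CPM in replicate 2, a log2 ratio of 0.74 (0.39 to 1.09, adjusted p = 0.00202, exact binomial test). Nucleotide 579 had 162 CPM in replicate 1 and 110 CPM in replicate 2, a log2 ratio of 0.56 (0.25 to 0.87, adjusted p = 0.0119, exact binomial test).

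At nucleotide 298 of mt-Rnr1 the values were 100.6 CPM in replicate 1 and 77.2 CPM in replicate 2, a log2 ratio of 0.38 (-0.02 to 0.77), which did not pass (adjusted p = 0.355, exact binomial test). mt-Rnr1 and mt-Rnr2 as a whole had log2 ratios of 0.29 and 0.36 between replicates 1 and 2. When each RNA's own totals were taken as the expected ratio, a single nucleotide, 228 of mt-Rnr2, differed (adjusted p = 0.000319, exact binomial test). The other 13 calls were not made against these totals.

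Against the other libraries, 17 of 215 tested rRNA nucleotides differed (7.91%), 12 higher in the replicates and 5 lower (two-sided exact binomial test of both replicates together, Benjamini-Hochberg over 2115 positions). Over all 2115 positions 7.66% were called, 3.5% higher and 4.16% lower, so the share in the rRNAs was near that of the whole genome. If the offset of the other libraries differs by 1 nt, a higher or lower call at a single nucleotide, or a peak missing there, can mark a cDNA end counted 1 nt away, and this cannot be told apart from a difference in level.

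The 12 higher in the replicates included the tallest nucleotide of each RNA. Nucleotide 227 of mt-Rnr2 had 134 and 79.9 CPM in replicates 1 and 2 and 29.0 CPM in the other libraries, a log2 ratio of 1.70 (95% interval 1.18 to 2.27, adjusted p = 7.34e-11, exact binomial test). Nucleotide 298 of mt-Rnr1 had 100.6 and 77.2 CPM in the replicates and 28.1 CPM in the other libraries, a log2 ratio of 1.57 (1.04 to 2.15, adjusted p = 1.33e-08, exact binomial test). Nucleotide 579 of mt-Rnr2 had 162 and 110 CPM in the replicates and 51.8 CPM in the other libraries, a log2 ratio of 1.25 (0.85 to 1.67, adjusted p = 3.86e-09, exact binomial test).

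Of the 20 highest nucleotides, 9 were called higher and 11 were not, against 3.5% called higher over all 2115 tested positions. The 20 were chosen for their height in the replicates and are deeply counted. Both favour higher calls, so this count is a description. Among those not called, nucleotide 269 of mt-Rnr1 had 84.6 and 52.4 CPM in the replicates and 51.8 CPM in the other libraries, a log2 ratio of 0.23 (-0.20 to 0.68, adjusted p = 0.690, exact binomial test). In mt-Rnr2, nucleotides 228, 570, 576, 577 and 578 did not pass either, with adjusted p = 0.122, 0.498, 0.390, 0.471 and 0.0583 (exact binomial test). In the run from 570 to 579, nucleotide 579 was thus called and the other 4 of the 10 highest were not.

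Several of the higher calls did not pass with 1 replicate left out, which also takes away its cDNAs. Without replicate 1, nucleotides 395 and 426 of mt-Rnr1 and 472, 761 and 1167 of mt-Rnr2 did not pass (adjusted p = 0.142, 0.259, 0.128, 0.112 and 0.0672, exact binomial test). Their log2 ratios were then 0.56, 0.55, 0.84, 0.88 and 1.17, against 0.74, 0.79, 1.08, 1.23 and 1.27 with both replicates. Without replicate 2, nucleotide 297 of mt-Rnr1 did not pass (adjusted p = 0.0954, exact binomial test). Its log2 ratio was then 1.22, against 1.27 with both replicates. These ratios have a small constant added to each count. Against each RNA's own totals, 297 and 426 of mt-Rnr1 and 472 and 1167 of mt-Rnr2 did not pass (adjusted p = 0.0997, 0.0782, 0.0533 and 0.0704, exact binomial test). Nucleotide 298 of mt-Rnr1 and nucleotides 227, 474, 579 and 746 of mt-Rnr2 were called in each of these settings. At a minimum of 10 cDNAs, 297 of mt-Rnr1 did not pass either (adjusted p = 0.0557, exact binomial test).

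One called nucleotide, 769 of mt-Rnr1 (M, 838), had 20 cDNAs in the replicates and 0 in the other libraries. It reached the minimum of 20 cDNAs through the replicates alone, where it is high, so its call gives no support for a difference. Its adjusted p was 0.0497, 0.0516 against the RNA's own totals and 0.0641 at a minimum of 10 cDNAs (exact binomial test). As a description, its level in the replicates was at least 2.47-fold higher, with 3 cDNAs over the pooled other libraries as the limit of a 0.

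Each of the 5 nucleotides that were lower in the replicates lay directly 3′ of a tall one. Nucleotides 229 and 762 of mt-Rnr2 and 270 and 427 of mt-Rnr1 did not reach the minimum for the test in the replicates alone. They reached it only with the other libraries, where they are high. As for nucleotide 769, their calls therefore give no support for a difference, and their values are descriptions. Nucleotide 299 of mt-Rnr1 reached the minimum in the replicates alone. Nucleotide 229 of mt-Rnr2 follows the peak at 228 and held 2 cDNAs in replicate 1, 14 in replicate 2 and 25 in the other libraries, a log2 ratio of -2.07 (-3.08 to -1.11, adjusted p = 0.000362, exact binomial test). Nucleotide 762 of mt-Rnr2 follows 761 and held 3, 5 and 16 cDNAs, a log2 ratio of -2.43 (-3.86 to -1.12, adjusted p = 0.00196, exact binomial test). In mt-Rnr1, nucleotide 270 follows 269 and held 3, 13 and 22 cDNAs, a log2 ratio of -1.89 (-2.92 to -0.89, adjusted p = 0.00214, exact binomial test).

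The other two were nucleotides 299 and 427 of mt-Rnr1, which follow 298 and 426. They held 8 and 7 cDNAs in replicate 1, 14 and 12 in replicate 2, and 25 and 19 in the other libraries, with log2 ratios of -1.62 and -1.43 (adjusted p = 0.00510 and 0.0401, exact binomial test). Without replicate 2 neither passed, with adjusted p = 0.139 and 0.318 (exact binomial test). Nucleotide 427 also did not pass at a minimum of 10 cDNAs (adjusted p = 0.0509, exact binomial test). The remaining 3 were called with either replicate left out wherever they could be tested, and 762 was too shallow for the test without replicate 2. Leaving out a replicate does not lift the limit given above, because the other libraries stay in each of these tests.

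The nucleotide directly 3′ was then read at all shared peaks, a measure chosen after these values were seen. For the 18 shared peaks whose next nucleotide is no shared peak itself, cDNAs at that next nucleotide were expressed as a share of those at the peak and the next together. Summed over the peaks the share was 12.8% in replicate 1, 14.8% in replicate 2 and 32.8% in the other libraries. It was higher in the other libraries than in both replicates at 15 of 18 peaks. The peaks were chosen for their height in both replicates, and next nucleotides that are shared peaks were left out. Both lower the share in the replicates by choice. The peaks whose next nucleotide was called lower are also among the 18, so these shares and counts are descriptions. Both sides can be compared at the 15 of these peaks that have no shared peak on either side. There the 3′ share was 15.8% in replicate 1, 17.0% in replicate 2 and 35.9% in the other libraries, and higher in the other libraries than in both replicates at 13 of 15 peaks. The 5′ share was 19.6%, 22.5% and 24.1%, and higher in the other libraries at 5 of 15.

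At 3 of the 18 peaks it was not higher. At nucleotide 579 of mt-Rnr2 the next nucleotide was empty in all tracks, as described, and at 37 and 570 the share in the other libraries was 44.7% and 28.6%, within or below the values of the replicates. The clearest cases were 298 of mt-Rnr1, with 8.89% in replicate 1, 7.45% in replicate 2 and 43.9% in the other libraries, and 761 of mt-Rnr2, with 5.17%, 6.33% and 44.4%.

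**Figure D5:**
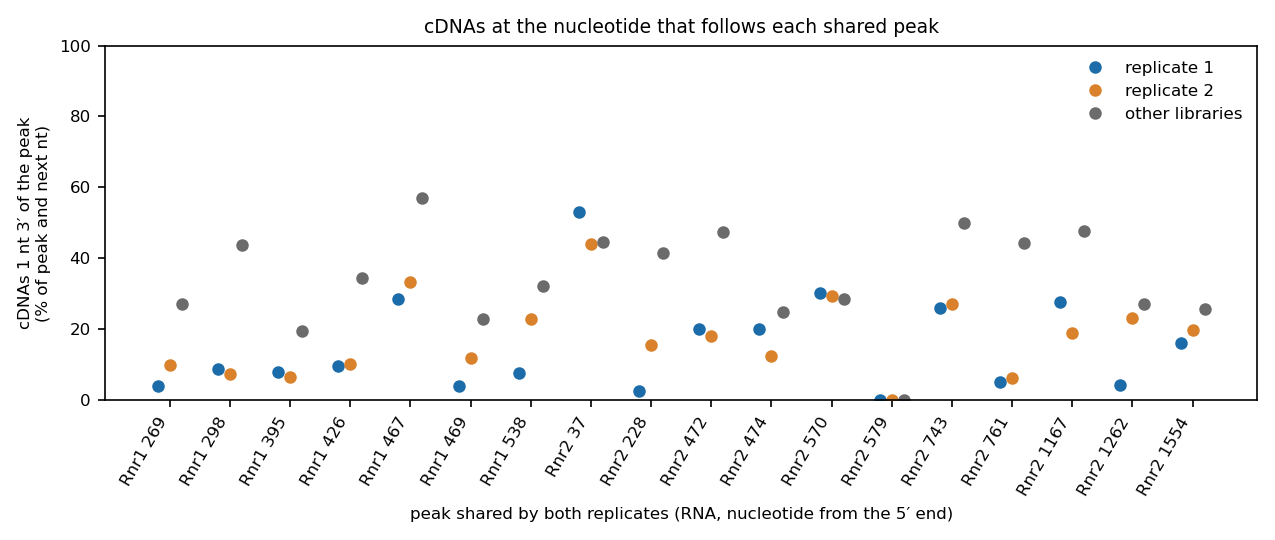
cDNAs at the nucleotide directly 3′ of each of the 18 shared peaks, as a percent of the cDNAs at the peak and that nucleotide together, for replicate 1, replicate 2 and the other libraries (1 point each; labels give the RNA and the peak's distance from its 5′ end). The points of the other libraries lie above both replicates at 15 of 18 peaks, which were chosen by their height in the replicates.

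Such neighbours were also seen outside the rRNAs. Of the 83 positions elsewhere in the genome that were lower in the replicates than in the other libraries, 57 (68.7%) had, directly 5′ on the same strand, a position with at least 2 times their cDNAs in the replicates. Among all 1900 tested positions elsewhere 9.11% had such a neighbour, and among the 215 tested rRNA positions 9.30%. Positions called lower are low in the replicates by choice, which favours a taller neighbour, so these shares are descriptions.

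The bases under the crosslinks were few in G. Per nucleotide, G in mt-Rnr1 held 0.406 times the RNA's mean count in replicate 1, 0.422 in replicate 2 and 0.454 in the other libraries, and in mt-Rnr2 0.479, 0.521 and 0.531 times. U held 1.28, 1.38 and 1.32 times the mean in mt-Rnr1 and 1.22, 1.28 and 1.32 times in mt-Rnr2. A and C lay between 0.748 and 1.18 times the mean. UV light at 254 nm crosslinks uridine more readily than other bases, which is background to these values.

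Counting each covered nucleotide once, U made up 30.9% of them in replicate 1 and 30.01% in replicate 2 in mt-Rnr1, of which 26.4% is U. In mt-Rnr2 the shares were 29.3% and 28.3%, with 26.4% U in the RNA. The 20 highest nucleotides were otherwise composed, with 11 A, 5 U, 4 C and 0 G. They were chosen by height, several are neighbours, and A makes up 37.8% of mt-Rnr1 and 38.2% of mt-Rnr2.

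All base assignments rest on the numbering of M. It was checked on the plus-strand positions outside the rRNAs, where the share of U was highest without a shift in all 3 tracks: 41.4% in replicate 1, 39.0% in replicate 2 and 41.8% in the other libraries. The next highest shift of up to 10 nt was 1 nt towards the 3′ end in both replicates (40.7% and 37.1%) and 1 nt towards the 5′ end in the other libraries (40.6%). Inside the rRNAs, by cDNAs, this did not always hold. In mt-Rnr2, U was higher 1 nt towards the 3′ end in replicate 1 (37.3% against 32.1%) and replicate 2 (36.7% against 33.8%). In mt-Rnr1, it was higher 1 nt towards the 5′ end in replicate 1 (34.4% against 33.7%) and the other libraries (36.7% against 34.7%). In the remaining track of each RNA it was highest without a shift. A base named at a position can therefore be off by 1 nt.

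A motif known for SRSF3 was searched on the RNA strand as the pentamers ACAAC or UCAAC, then ACAUC or UCAUC, then ACUAC or UCUAC, and then ACUUC or UCUUC. It occurs 6 times in mt-Rnr1 and 15 times in mt-Rnr2. In mt-Rnr1, 5 of the 10 highest nucleotides lay within 25 nt of it, as did 29.3% of all nucleotides of the RNA. In mt-Rnr2, 10 of 10 did, as did 48.3% of all, at distances of 0 to 20 nt. UUUUU occurs 0 times in mt-Rnr1 and 1 time in mt-Rnr2, within 25 nt of 0 of the 20 nucleotides.

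The 10 nucleotides of mt-Rnr2 lie in 4 sites and those of mt-Rnr1 in 7, so they share motif copies. At nucleotides 297 and 298 of mt-Rnr1 and 761 of mt-Rnr2 the position fell inside a copy. By cDNAs, 40.8% in replicate 1, 39.9% in replicate 2 and 41.4% in the other libraries lay within 25 nt of a copy in mt-Rnr1. In mt-Rnr2 these shares were 65.1%, 62.8% and 58.6%. A match is a description and not a binding site.

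Among 7 other mitochondrial genes with at least 50 cDNAs in each track, mt-Nd6 was closest to the rRNAs in its levels across tracks. Its log2 ratio was 0.33 between replicates 1 and 2 and 0.14 between the replicates and the other libraries, against 0.34 and 0.13 for the rRNAs together. mt-Nd6 is the only mRNA of the minus strand and encodes a subunit of complex I, and its cDNAs numbered 63, 139 and 68. mt-Co1 and mt-Cytb, which encodes a subunit of complex III, followed, at Euclidean distances of 0.346 and 0.592 on the log2 scale, against 0.0181 for mt-Nd6. The likeness rests on 2 ratios over 3 tracks.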

How the data were processed

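In the iCLIP tracks that the authors deposited, every covered nucleotide carries a signed score: its absolute value counts cDNAs, unscaled, and its sign gives the strand. Genome mm9 and annotation Ensembl 59 are named per the file headers, and Bowtie 0.10.1 per the submitters' processing notes. The treatment of duplicates and multiply matching reads: not given in the sources used here. Samples were grouped by the labels' titles.

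Positive-strand scores inside mt-Rnr1 and mt-Rnr2 were summed, and both replicates were subtracted from the merged track. Gene bounds and sequences came from GENCODE M21 (GRCm38), and no coordinate was converted. Counts were given per 1000000 cDNAs (CPM). Positions of the whole genome with at least 20 cDNAs were tested with an exact binomial test (SciPy 1.17.1) and Benjamini-Hochberg adjustment. In simulated counts of replicate 1 against replicate 2 this procedure called 3 of 1121 unchanged positions. It called 11 of 100 positions with a 2-fold and 44 of 100 with a 4-fold difference. A nucleotide that was not called can therefore still differ. The comparison with the other libraries was not simulated. Replicate 1 totalled 815414 and replicate 2 totalled 2253688 cDNAs, and 95% intervals cover counting error only. The p-values compare libraries.

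By rule, the text names the 10 positions of each RNA with the highest lower CPM of both replicates, the 3 densest and least dense 25 nt windows, the 3 longest empty runs and the 3 mitochondrial genes most like the rRNAs. All other positions named were picked with their values in view. The RNAs, lists and tests were chosen with earlier results of these data known. Alternatives varied thresholds, windows, totals and replicates.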

Additional observations from a re-analysis of the deposited data

Results flagged for a closer look

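The other libraries, which no sample label describes, held cDNAs at nucleotides that are empty in both replicates: 74 in mt-Rnr1, with 107 cDNAs and at most 4 at a nucleotide, and 130 in mt-Rnr2, with 196 cDNAs and at most 8. The minus strand of mt-Rnr2, which is outside the RNA, held 9 cDNAs in the merged track, against 13258 on the plus strand and 0 on the minus strand of mt-Rnr1.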

How the results depend on the processing

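Of 48 alternatives to 14 values, 34 stayed within their error or within 1.5 times the count, and 14 moved. The values are densities, shares and counts, which have no direction to turn. The nucleotides that differed between replicates 1 and 2 numbered 8 in place of 14 at a minimum of 10 cDNAs and 1 against each RNA's own totals. The share of replicate 1 peaks of mt-Rnr2 found in replicate 2, 73.9%, was 22.2% at 20 times the mean (9 peaks) and 95.7% within 5 nt. The tenth of windows with the most cDNAs held 32.4% of mt-Rnr1, and 44.1% with 10 nt and 26.6% with 50 nt windows. In mt-Rnr2 it held 37.6%, and 52.2% and 32.1%. Empty nucleotides, 229 and 391, ranged from 282 to 463 in mt-Rnr1 and from 500 to 787 in mt-Rnr2 with a replicate left out. The U share, 30.5% in mt-Rnr1 and 28.8% in mt-Rnr2 as the mean of both replicates, was 35.0% and 33.0% by cDNAs and 34.3% and 31.8% at nucleotides with at least 2 cDNAs. Depth limits single nucleotides: the median nucleotide of either RNA held 1 cDNA in replicate 1. No paired analysis was possible because the iCLIP replicates are compared with no group that shares their numbers. The causes were not tested.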
